A study of Mus musculus with 23 samples.

Results

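The cathepsins and the subunits of the vacuolar ATPase (V-ATPase) were followed at the RNA level in mouse macrophages treated with a saturated fatty acid, an unsaturated one, or a bacterial ligand. Members were taken by gene symbol: cathepsins named Cts and 1 letter, and genes whose names start with Atp6v or Atp6ap. This gave 41 of 19938 measured genes, of which 17 were cathepsins and 24 belonged to the V-ATPase. The cathepsins comprised 7 cysteine endopeptidases, 3 cysteine exopeptidases, 4 aspartic or serine proteases and 3 rodent placental cathepsins. The V-ATPase genes comprised 13 of the V1 sector, 8 of the V0 sector and 3 accessory proteins. A further cathepsin, Ctsm, was represented solely by probe sets shared with another gene and was not analysed here. The subunit gene Atp6v0c was not analysed here.

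The cells were primary macrophages grown from bone marrow of wild-type C57Bl/6 mice in M-CSF, which was withdrawn before treatment. They were read on 23 single-channel arrays in 6 groups. Bovine serum albumin (BSA), the carrier of the acids, served as vehicle at 125 µM for 5 h (n = 3). Oleic acid (OA, with 1 double bond) and stearic acid (SA, saturated, of the same chain length) were complexed to BSA and used at 250 µM, each for 5 h (n = 4) and for 20 h (n = 4). Lipopolysaccharide (LPS, 1 ng/mL), a bacterial ligand of the receptor TLR4, was applied for 5 h in 4 cultures. For vehicle and LPS the duration is 5 h in the labels of the samples but 4 h in the text of the series. There was no vehicle group at 20 h, so at that time SA was compared with OA, and each acid with its own 5 h group. The replicates are called wells in the labels and biological replicates in the series text, so the p-values reflect how far these samples spread, which may be technical.

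Values are log2 expression per probe set, summarised by RMA, and a difference of 1 on this scale is a factor of 2. Differences come from a limma fit across all genes, and a gene was called changed at a Benjamini-Hochberg adjusted p under 0.05. Intervals cover 95% and SE is the standard error of a difference. Array medians lay between 3.98 and 4.12. The median gene had a mean of 4.25 over the arrays, and 11 of the 17 cathepsins and 18 of the 24 V-ATPase genes lay above it. Below it lay Ctse, Ctsg, Ctsw, the placental Ctsj, Ctsq and Ctsr, and the V-ATPase genes Atp6v0a4, Atp6v1b1, Atp6v1c2, Atp6v1e2, Atp6v1g3 and Atp6ap1l. None of these 12 was called by limma in any of the 8 comparisons, and 1 of them, Atp6v1c2, had an unadjusted p under 0.05 in SA against OA at either time. Levels are compared within a gene and not between genes, since probes differ in brightness. One array differed from its group, replicate 2 of 20 h SA, which had an SD of gene deviations of 0.215 against 0.153 to 0.161 on the other 3.

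As background, lysosomes break down what macrophages engulf, and their enzymes work in an acid lumen. The V-ATPase makes that acid: its V1 sector in the cytosol splits ATP and turns a rotor, and its V0 sector in the membrane carries the protons. Cathepsins are lysosomal proteases that mature in the acid compartment and differ in where they cut, the exopeptidases trimming chain ends and the endopeptidases cutting inside chains. Genes of both kinds are known targets of TFEB, TFE3 and related factors, which bind the E-box CACGTG in lysosomal promoters, best in the longer form TCACGTGA, called the CLEAR core.

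Promoters were searched for these letters because they are the textbook link between the cathepsins and the pump. RefSeq promoters of assembly GRCm38.p6, 250 bases before to 50 after the start, were matched for 30 of the 41 members. The other 11 were not searched, namely Atp6ap1l, Atp6v0a2, Atp6v0d2, Atp6v1b2, Atp6v1c1, Atp6v1g1, Atp6v1h, Ctsb, Ctse, Ctsh and Ctsw. The CLEAR core TCACGTGA, which reads the same on both strands, lay in the promoters of 5 of the 30 (16.7%), against 1.1% of 27025 genes in the promoter table. The E-box CACGTG, which every CLEAR core contains, lay in 8 of the 30 (26.7%) against 8.1% of all genes. The core TGACNNNGC of the antioxidant response element, searched on both strands, lay in 7 of the 30 (23.3%) against 14.0% of all genes. The core TGATGNAA of the amino acid response element, also searched on both strands, lay in 3 of the 30 (10.0%) against 4.5% of all genes. A match describes letters and not binding. The 5 promoters with a CLEAR core are shown with that of Ctsc, which had no match for any of these motifs and was the cathepsin with the widest span of group means. Each runs 5′ to 3′ along the gene's strand from 150 bases before the start to 30 bases into the gene, with E-box and CLEAR letters in capitals.
Atp6v0d1, chr8:105566035-105566214, minus strand: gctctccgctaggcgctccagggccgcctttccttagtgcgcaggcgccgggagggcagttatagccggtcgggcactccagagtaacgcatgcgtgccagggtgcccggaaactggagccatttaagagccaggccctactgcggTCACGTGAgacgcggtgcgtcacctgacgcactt
Atp6v0e, chr17:26676246-26676425, plus strand: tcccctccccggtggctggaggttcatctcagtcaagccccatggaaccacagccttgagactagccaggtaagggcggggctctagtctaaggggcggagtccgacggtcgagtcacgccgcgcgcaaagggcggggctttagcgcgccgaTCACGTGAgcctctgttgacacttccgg
Atp6v1a, chr16:44139230-44139409, minus strand: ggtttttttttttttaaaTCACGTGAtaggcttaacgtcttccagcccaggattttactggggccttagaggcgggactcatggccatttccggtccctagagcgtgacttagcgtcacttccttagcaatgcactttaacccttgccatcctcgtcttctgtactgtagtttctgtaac
Ctsa, chr2:164833623-164833802, plus strand: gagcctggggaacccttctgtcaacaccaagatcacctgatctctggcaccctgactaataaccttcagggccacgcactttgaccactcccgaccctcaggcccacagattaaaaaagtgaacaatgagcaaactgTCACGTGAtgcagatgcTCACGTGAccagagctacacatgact
Ctsd, chr7:142387798-142387977, minus strand: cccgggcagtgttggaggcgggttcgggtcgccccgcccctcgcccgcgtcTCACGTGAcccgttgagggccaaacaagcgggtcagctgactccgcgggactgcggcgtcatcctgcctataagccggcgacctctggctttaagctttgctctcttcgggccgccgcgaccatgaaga
Ctsc, chr7:88277935-88278114, plus strand: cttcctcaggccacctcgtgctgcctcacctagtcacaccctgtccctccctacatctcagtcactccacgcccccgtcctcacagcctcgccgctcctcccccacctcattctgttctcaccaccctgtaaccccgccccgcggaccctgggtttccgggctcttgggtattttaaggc

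In the windows shown, the CLEAR core began 4 bases before the start of Atp6v0d1, 132 bases before that of Atp6v1a and 99 bases before that of Ctsd. In Atp6v0e it began 2 bases after the start. Ctsa has 2 starts in the table, and the 2 cores lay at the one shown, the first of them 13 bases before the start. Of these 5 genes, Atp6v0d1 and Atp6v0e were called at 20 h as higher with SA than OA, and Atp6v1a, Ctsa and Ctsd were not called there. Atp6v1d, Atp6v1f and Ctsk, also called higher there, had no match for any of the motifs. Atp6v1c1, Atp6v1h, Atp6v1g1 and Atp6v0d2, called higher too, were not searched. The values follow below by gene.

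In the main contrast, saturated against unsaturated acid at 20 h, members were called in both directions. Among cathepsins, 3 were lower with SA (Ctsc, Ctsh and Ctsl) and 1 was higher (Ctsk). Among V-ATPase genes, 8 were higher and 3 lower. In all, 16.7% of the 19938 genes were called in this comparison (7.72% higher and 8.95% lower), and 29.5% of those above the median level, where the members called were 4 of 11 cathepsins and 11 of 18 V-ATPase genes. For the cathepsins the count is near the share among genes above the median level. The median difference was 0.04 for the cathepsins and 0.14 for the V-ATPase genes, beside 0.03 over all genes. Above the median level it was -0.08 for the cathepsins, 0.125 for the V-ATPase genes and 0.01 for genes in general. Under quantile normalisation the split was 2 higher and 3 lower among cathepsins and 9 higher and 1 lower among V-ATPase genes.

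**Figure D1:**
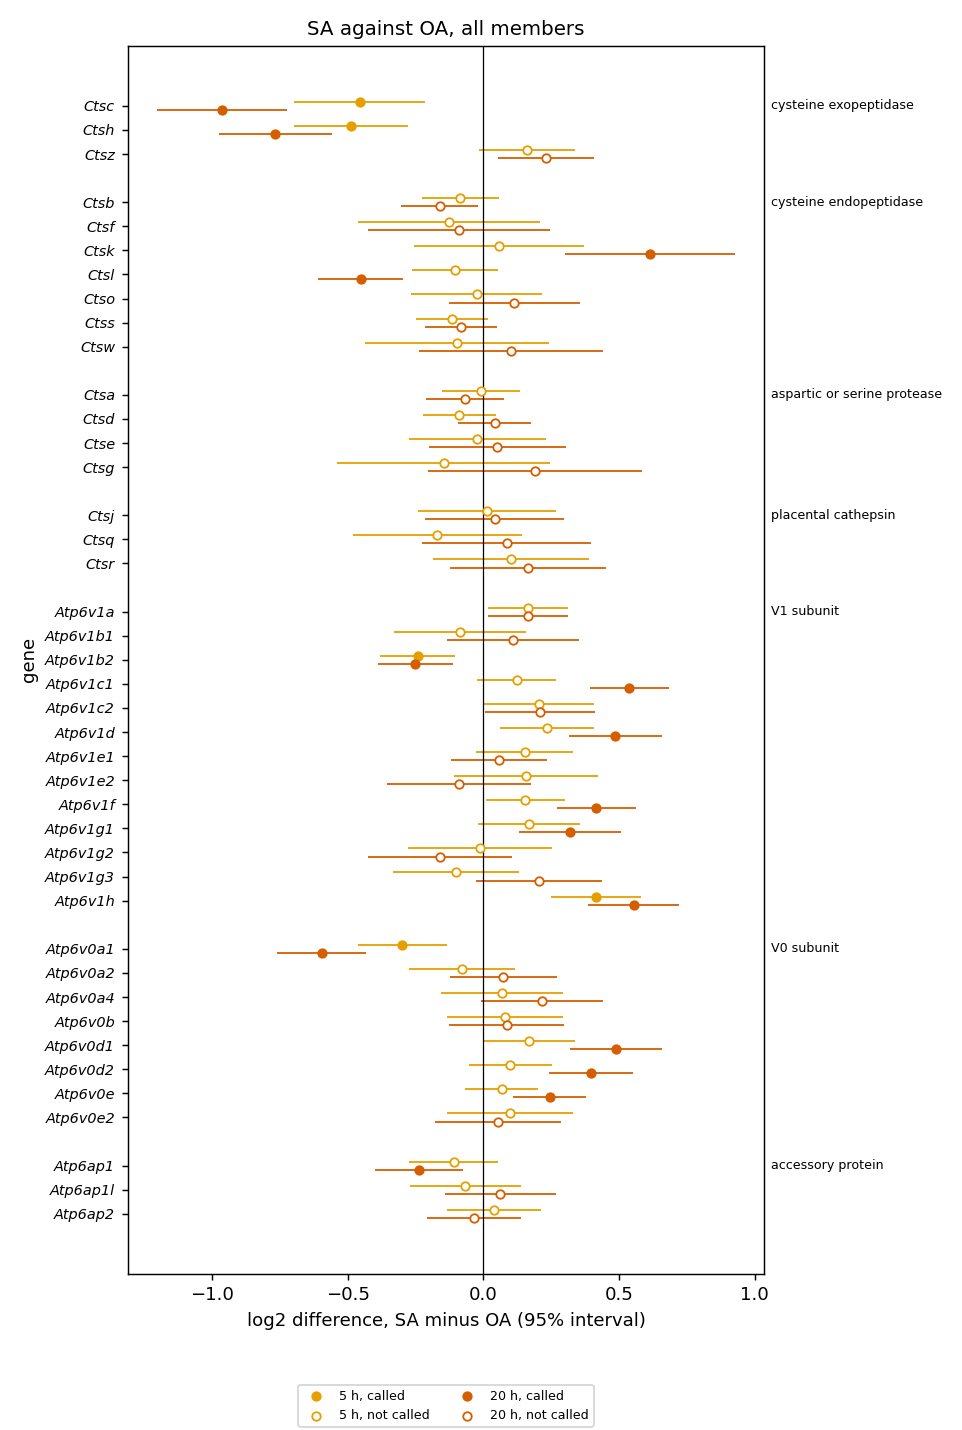
Log2 difference of SA minus OA at 5 h and 20 h for all 41 members, grouped by role. Points are limma estimates, lines are 95% intervals, and filled points are called at an adjusted p under 0.05. At 20 h the lowest member is Ctsc at -0.96 and the highest Ctsk at 0.62.

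Among the cysteine exopeptidases, Ctsc, the dipeptidyl peptidase that activates the serine proteases of immune cell granules, moved most. Its log2 expression at 20 h was 7.26, 7.04, 7.36 and 7.44 with SA and 8.51, 8.18, 8.11 and 8.15 with OA. Every SA array lay below every OA array, and the difference was -0.96 (SE 0.12, adjusted p = 7.70e-07), or 1.95-fold lower. At 5 h the values were 7.73, 7.78, 8.18 and 7.95 with SA, 8.56, 8.29, 8.25 and 8.36 with OA, and 8.21, 8.56 and 8.46 with vehicle. SA again lay below both, without overlap. The 5 h difference was -0.46 (SE 0.12, adjusted p = 0.0183) against OA and -0.50 (SE 0.13, adjusted p = 0.0236) against vehicle. These arrays are of bulk RNA, in which fewer cells of a type and less RNA per cell cannot be told apart.

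Across the 6 groups Ctsc spanned 2.54 on the log2 scale, from 7.28 ± 0.18 (SD, n = 4) with 20 h SA to 9.81 ± 0.11 (SD, n = 4) with LPS. The LPS arrays read 9.80, 9.67, 9.93 and 9.84, all above vehicle. The difference from vehicle was 1.40 (SE 0.13, adjusted p = 3.25e-09), or 2.64-fold higher. Vehicle, 5 h OA and 20 h OA overlapped between these ends, at means of 8.41, 8.36 and 8.24, and 5 h SA, at 7.91, overlapped 20 h OA in 1 array and lay below the others. From 5 h to 20 h Ctsc fell by 0.63 with SA (SE 0.12, adjusted p = 3.48e-04), and with OA it was not called. The change of the SA to OA difference between the times was -0.51 (interval -0.85 to -0.17, adjusted p = 0.0855) and so was not called.

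Ctsh, an aminopeptidase of the same class, was also lower with SA at both times. At 20 h its log2 expression was 7.96, 7.61, 7.82 and 8.08 with SA and 8.59, 8.63, 8.59 and 8.72 with OA. The SA arrays all lay lower, by -0.77 on average (SE 0.10, adjusted p = 2.86e-06), or 1.70-fold. At 5 h the SA arrays read 8.12, 8.14, 8.33 and 8.23 and the OA arrays 8.61, 8.79, 8.64 and 8.74, again without overlap. That difference was -0.49 (SE 0.10, adjusted p = 0.00291). Against vehicle, which read 8.30, 8.59 and 8.77, 5 h SA overlapped in 1 array and the difference of -0.35 was not called (adjusted p = 0.0925). In contrast to Ctsc, Ctsh fell with LPS, to 8.22, 8.31, 8.22 and 8.10, a difference of -0.34 (SE 0.11, adjusted p = 0.0261) in which 1 LPS array overlapped the vehicle arrays. The carboxypeptidase Ctsz, the remaining exopeptidase, was at 10.41 to 10.75 with 20 h SA and 10.35 to 10.49 with OA. Its difference of 0.23 (interval 0.05 to 0.41) was not called, with an adjusted p of 0.0706.

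Among the cysteine endopeptidases, Ctsl and Ctsk moved in opposite directions. Ctsl, a major lysosomal endopeptidase, had a log2 expression of 10.37, 10.13, 10.52 and 10.38 with 20 h SA and 10.78, 10.78, 10.81 and 10.85 with 20 h OA. The groups did not overlap, and SA was lower by -0.45 (SE 0.08, adjusted p = 8.39e-05), or 1.37-fold. At 5 h, SA read 10.65, 10.79, 10.78 and 10.80 and OA 10.89, 10.86, 10.89 and 10.79. That difference of -0.11 (interval -0.26 to 0.05) was not called. Within SA, Ctsl fell by 0.40 from 5 h to 20 h (SE 0.08, adjusted p = 4.65e-04).

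Ctsk, known for degrading collagen in osteoclasts, read 6.42, 6.03, 6.42 and 6.55 with 20 h SA and 5.81, 5.56, 5.90 and 5.69 with 20 h OA. All SA arrays were higher, by 0.62 on average (SE 0.15, adjusted p = 0.00472), or 1.53-fold. At 5 h the means were 5.82 with SA, 5.76 with OA and 5.83 with vehicle, and the groups overlapped. The LPS arrays were wide apart, from 5.05 to 5.98, and their difference from vehicle of -0.35 (interval -0.68 to -0.01) was not called. Within SA, Ctsk rose by 0.54 from 5 h to 20 h (SE 0.15, adjusted p = 0.0179), a call that was lost without 5 h SA replicate 1 (adjusted p = 0.0613) or 20 h SA replicate 4 (adjusted p = 0.0665).

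The other cathepsins above the median level were not called between the acids. Ctsb, an endopeptidase that also trims chain ends, read 11.23 to 11.32 with 20 h SA and 11.40 to 11.50 with OA, without overlap. Its difference of -0.16 (interval -0.30 to -0.02) did not pass the adjusted threshold (adjusted p = 0.127). Ctss, which processes the invariant chain of MHC class II, differed by -0.08 (interval -0.22 to 0.05). Ctsd, the main lysosomal aspartic protease, lay between 11.57 and 11.87 on all 23 arrays. Its SA minus OA difference at 20 h was 0.04 (interval -0.09 to 0.18), which leaves room for a small change in either direction. Ctsa, a serine carboxypeptidase that also shields other lysosomal enzymes, differed by -0.07 (interval -0.21 to 0.08). The less studied Ctsf and Ctso were not called in any comparison.

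**Figure D2:**
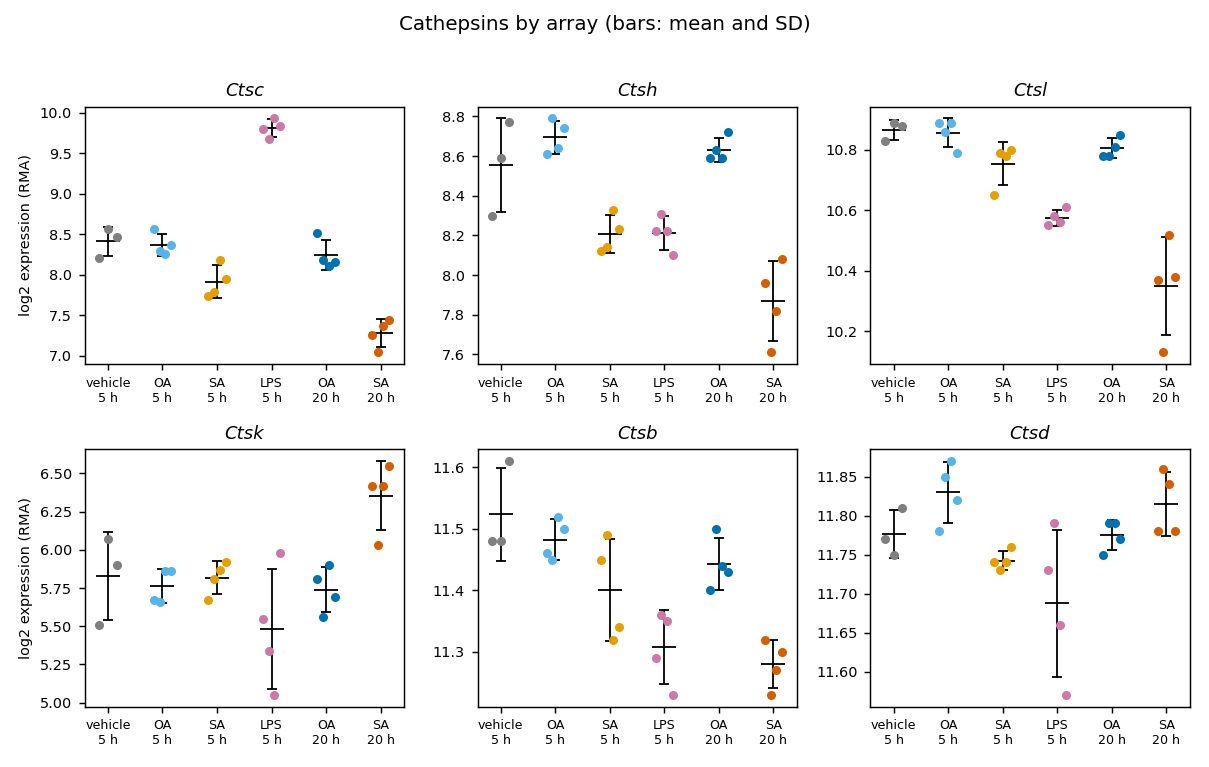
Log2 expression of 6 cathepsins on each of the 23 arrays, by group (points), with the group mean and SD (bars). The vertical scales differ between panels and do not start at 0. Ctsc is lowest with 20 h SA at a mean of 7.28 and highest with LPS at 9.81, and Ctsd stays between 11.57 and 11.87.

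At 5 h, where vehicle was measured, few cathepsins separated the acids. Against OA, SA lowered 2 (Ctsc and Ctsh) and raised 0, both among the 11 cathepsins above the median level. Of all genes 5.67% were called (3.30% higher, 2.37% lower), and 10.3% of those above the median level. The count is too small to be read as a result about the cathepsins. Against vehicle, SA lowered 1 (Ctsc) with 3.33% of all genes called (1.94% higher, 1.39% lower). OA against vehicle gave 0 called members of 41 by limma, with 2 at an unadjusted p under 0.05, both in the V-ATPase, and 0.0702% of all genes called. The alternative limma settings made no call there either. The call of Ctsc against OA was lost without replicate 1 of OA (adjusted p = 0.0707), replicate 1 of SA (0.0725) or replicate 2 of SA (0.064). Against vehicle it was lost without vehicle replicate 2 (adjusted p = 0.167) or 3 (0.109), or SA replicate 1 (0.0823) or 2 (0.0726). Leaving out vehicle replicate 1 gave 2 called cathepsins against vehicle.

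LPS against vehicle called 6 cathepsins, of which Ctsc rose and Ctsa, Ctsb, Ctsh, Ctsl and Ctss fell, with 22.4% of all genes called (9.22% rose, 13.2% fell) and 38.8% of those above the median level. The median difference was -0.13 for the cathepsins and -0.02 for all genes. Above the median level it was -0.20 for the cathepsins and -0.10 for genes in general. Ctsl read 10.55, 10.58, 10.56 and 10.61 with LPS and 10.83, 10.89 and 10.88 with vehicle, a difference of -0.29 (SE 0.08, adjusted p = 0.0112). Ctsa fell by 0.28 (adjusted p = 0.00616), Ctsb by 0.21 (0.038) and Ctss by 0.20 (0.0382), each without overlap. Centring each array on its median kept the directions and ended the 5 calls of lower cathepsins, so that 1 rose and 0 fell. The differences were then -0.23 for Ctsa (adjusted p = 0.061), -0.16 for Ctsb (0.219), -0.28 for Ctsh (0.0997), -0.24 for Ctsl (0.072) and -0.15 for Ctss (0.166). Under quantile normalisation 1 rose and 3 fell. Without vehicle replicate 3, 3 cathepsins were called, and adjusted p was 0.186 for Ctsb, 0.212 for Ctsh and 0.112 for Ctss. Ctsh was also lost without vehicle replicate 2 (adjusted p = 0.086) or LPS replicate 4 (0.072). Ctsb was also lost without vehicle replicate 1 or 2 or LPS replicate 1 or 4 (adjusted p 0.0583 to 0.0937), and Ctss without vehicle replicate 1 or LPS replicate 1, 3 or 4 (0.0572 to 0.142).

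In the V1 sector of the pump, 5 subunits were higher and 1 was lower with SA, relative to OA, at 20 h. Atp6v1c1 encodes the C subunit, which clamps V1 onto V0 and is released when the pump is taken apart. It read 9.62, 9.57, 9.63 and 9.65 with 20 h SA and 9.06, 9.16, 9.0 and 9.08 with 20 h OA. SA was higher on every array, by 0.54 (SE 0.07, adjusted p = 2.62e-06), or 1.45-fold. At 5 h it was 9.08 ± 0.05 in the SA group and 8.96 ± 0.04 in the OA group (SD, n = 4 each), which were not called apart. In this fit Atp6v1c1 was the only member called for a change of the SA to OA difference between the times. The change was 0.42 (SE 0.10, adjusted p = 0.0109), with 4.98% of all genes called (1.58% upward, 3.40% downward). Of the 41 members, 9 had an unadjusted p under 0.05 by limma in this comparison. A fit with a variance trend and robust moderation called 2 cathepsins and 4 V-ATPase genes there. Leaving out replicate 2 of 20 h SA gave 2 V-ATPase genes, and leaving out 5 h OA replicate 1, 5 h SA replicate 1 or 20 h SA replicate 3 gave 1 cathepsin. With LPS Atp6v1c1 read 8.41, 8.54, 8.39 and 8.51, below the vehicle values of 8.91, 9.08 and 9.13.

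Atp6v1h encodes the H subunit, which couples ATP splitting to proton transport and holds idle V1 in check. It read 8.70, 8.43, 8.69 and 8.74 with 20 h SA and 8.03, 8.07, 8.05 and 8.21 with 20 h OA. The groups did not overlap, and the difference was 0.55 (SE 0.08, adjusted p = 1.26e-05), or 1.47-fold. It was already apart at 5 h, with SA at 8.42, 8.45, 8.46 and 8.58 and OA at 8.17, 8.09, 8.07 and 7.91. That difference of 0.42 (SE 0.08, adjusted p = 0.00147) lay around vehicle, which read 8.21, 8.23 and 8.26. Neither acid was called against vehicle for this gene, and neither was LPS, at a difference of -0.02 (interval -0.20 to 0.16).

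In the rotor and the stalks, 3 subunits were higher with SA at 20 h. Atp6v1d, the D subunit of the central rotor, read 9.22, 8.95, 9.24 and 9.09 with 20 h SA and 8.66, 8.60, 8.60 and 8.69 with OA. Its difference was 0.49 (SE 0.08). Atp6v1f, the F subunit of the rotor, read 10.23, 10.27, 10.36 and 10.33 with SA and 9.87, 9.75, 9.95 and 9.95 with OA. Its difference was 0.42 (SE 0.07), and SA arrays of both genes all lay above the OA arrays. A second probe set of Atp6v1f gave 0.35. Atp6v1g1, the G subunit of the outer stalks, read 9.80, 9.43, 9.81 and 9.79 with SA and 9.36, 9.35, 9.36 and 9.48 with OA, so that 1 SA array, replicate 2, lay within the OA range. Its difference was 0.32 (SE 0.09, adjusted p = 0.0142), and it was lost without SA replicate 1 (adjusted p = 0.0506) or 3 (0.0544). Its second probe set gave 0.30 and an adjusted p over all probe sets of 0.0609. Atp6v1e1, the E subunit of those stalks, was not called, at 0.06 (interval -0.12 to 0.24).

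Of the subunits of the catalytic ring, 1 was lower with SA and the others were not called. Atp6v1b2, the B subunit, read 10.14, 10.11, 10.01 and 10.07 with 20 h SA and 10.32, 10.35, 10.34 and 10.34 with 20 h OA. It was lower with SA without overlap, by -0.25 (SE 0.07, adjusted p = 0.00849), or 1.19-fold. It was lower at 5 h as well, by -0.24 (SE 0.07, adjusted p = 0.0299), with SA at 9.82 to 9.95 and OA at 10.09 to 10.18. Quantile normalisation ended both calls, with adjusted p of 0.121 at 20 h and 0.079 at 5 h. Atp6v1a, the A subunit that binds ATP, read 9.68, 9.50, 9.71 and 9.71 with 20 h SA and 9.49, 9.51, 9.43 and 9.51 with OA. Its difference of 0.16 (interval 0.02 to 0.31) was not called (adjusted p = 0.137).

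**Figure D3:**
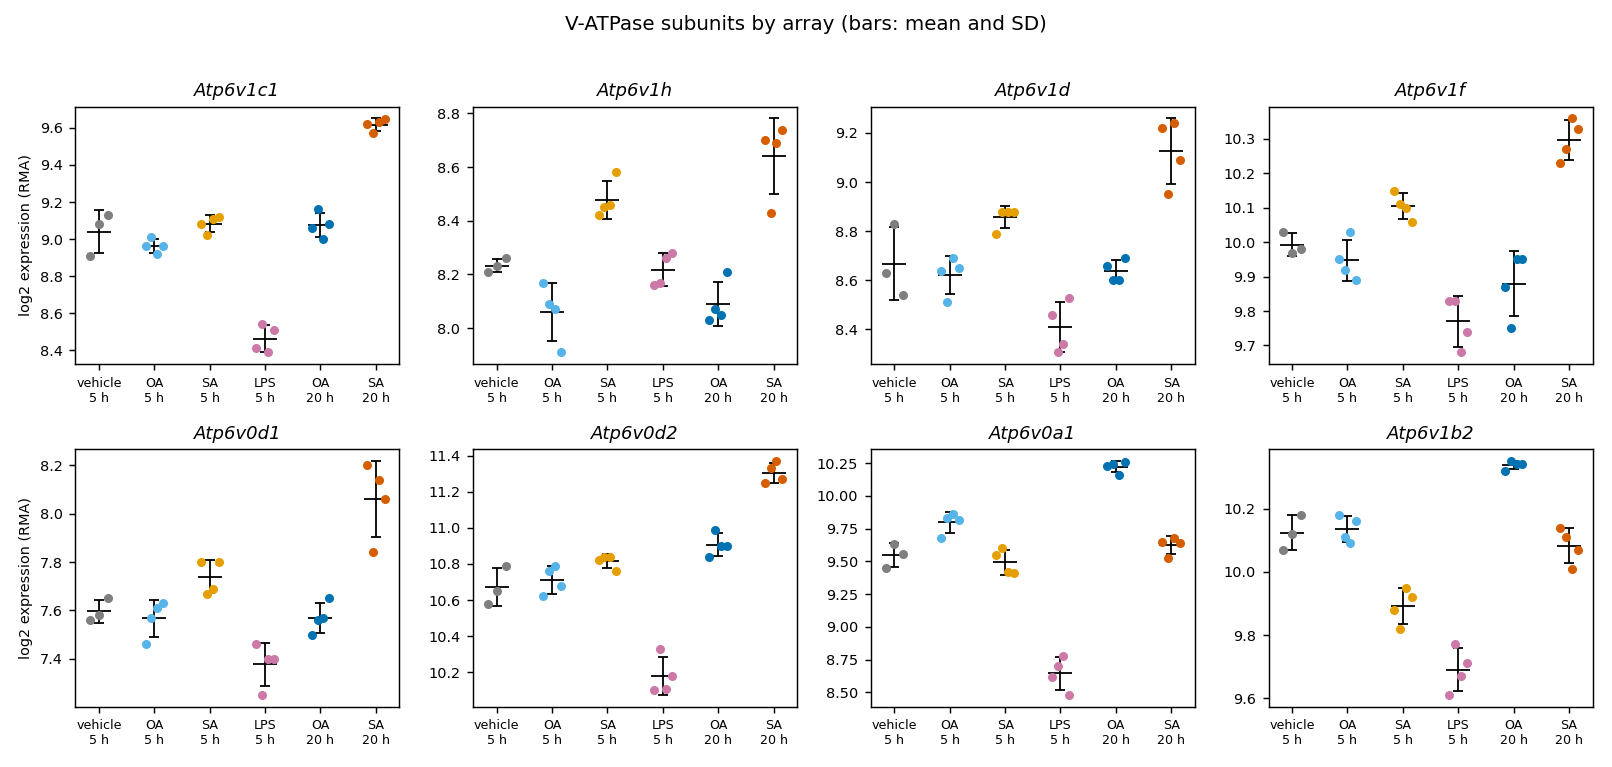
Log2 expression of 8 V-ATPase genes on each of the 23 arrays, by group (points), with the group mean and SD (bars). Vertical scales differ between panels and do not start at 0. Atp6v1c1, Atp6v1d, Atp6v1f, Atp6v0d1 and Atp6v0d2 have their highest mean with 20 h SA and their lowest with LPS, whereas Atp6v0a1 and Atp6v1b2 are highest with 20 h OA.

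In the V0 sector, 3 subunits were higher with SA at 20 h and 1 was lower. Atp6v0a1 encodes 1 of the alternative a subunits, which form the proton channels and direct the pump to a membrane. It read 9.65, 9.53, 9.68 and 9.64 with 20 h SA and 10.23, 10.24, 10.16 and 10.26 with 20 h OA. SA lay lower on every array, by -0.60 (SE 0.08, adjusted p = 3.28e-06), or 1.51-fold. The 20 h SA mean of 9.63 was close to that of vehicle at 9.55, and the 20 h OA mean was the highest of the 6 groups at 10.22. With OA, Atp6v0a1 rose by 0.43 from 5 h to 20 h (SE 0.08, adjusted p = 0.00124), the only member this fit called in that comparison, in which 4.38% of all genes were called (2.58% rose, 1.80% fell). The acids were already apart after 5 h, with SA at 9.55, 9.60, 9.42 and 9.41 and OA at 9.68, 9.83, 9.86 and 9.82. That difference was -0.30 (SE 0.08, adjusted p = 0.0236). Against vehicle, 5 h SA overlapped, at -0.05 (interval -0.23 to 0.12). The 5 h OA arrays all lay above vehicle, by 0.25 (interval 0.07 to 0.42). Neither acid was called against vehicle for Atp6v0a1. The largest change of Atp6v0a1 was with LPS, where it read 8.62, 8.70, 8.78 and 8.48 against 9.45, 9.63 and 9.56 with vehicle. That difference was -0.90 (SE 0.09, adjusted p = 8.64e-09), or 1.87-fold lower.

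No other a subunit was called between the acids. Atp6v0a2, found mainly at the Golgi, was 0.07 apart between the acids at 20 h (interval -0.12 to 0.27). It rose with LPS, from 6.33, 6.42 and 6.51 with vehicle to 6.78, 6.61, 6.74 and 6.74, by 0.30 (SE 0.10, adjusted p = 0.0361). That call was lost without vehicle replicate 1 (adjusted p = 0.151) or 2 (0.0898) or LPS replicate 1 (0.0862), 3 (0.0717) or 4 (0.0652). The a3 subunit, encoded by Tcirg1 and known from lysosomes of macrophages and osteoclasts, lies outside the naming rule. Its group means lay between 9.67 and 9.82, and it was not called in any comparison.

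The d subunits join the rotor to the proton ring, and both were higher with SA. Atp6v0d1, the common form, read 8.20, 7.84, 8.14 and 8.06 with 20 h SA and 7.50, 7.56, 7.57 and 7.65 with 20 h OA. The groups did not overlap, and the difference was 0.49 (SE 0.08, adjusted p = 7.64e-05), or 1.40-fold. Atp6v0d2, a form known from osteoclasts and macrophages, read 11.25, 11.33, 11.37 and 11.27 with SA and 10.84, 10.99, 10.90 and 10.90 with OA. Its difference was 0.40 (SE 0.07, adjusted p = 3.22e-04), or 1.32-fold. Atp6v0e, a small membrane subunit, read 10.83, 10.73, 10.80 and 10.81 with SA and 10.55, 10.50, 10.55 and 10.59 with OA. The difference of 0.24 (SE 0.06, adjusted p = 0.00869) was small and without overlap, and it was not called in a fit of the compared groups alone (adjusted p = 0.056). Atp6v0b, part of the proton ring, was not called between the acids, at 0.09 (interval -0.13 to 0.30), and neither was Atp6v0e2. The G subunit form Atp6v1g2, at -0.16 (interval -0.42 to 0.11), was not called either.

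The accessory proteins assist assembly and trafficking of the pump. Atp6ap1 read 9.46, 9.16, 9.31 and 9.39 with 20 h SA and 9.57, 9.51, 9.59 and 9.60 with OA, a difference of -0.24 (SE 0.08, adjusted p = 0.0403). The call was close to the threshold: without SA replicate 2 the difference was -0.18 (adjusted p = 0.148), and it was also lost without SA replicate 3 or any 1 of the 4 OA replicates (adjusted p 0.0526 to 0.0945). It was lost as well with centred arrays (0.0951), in a fit of only the compared groups (0.106) and under quantile normalisation, at -0.18 (0.126). Atp6ap2, also known as the prorenin receptor, differed by -0.03 (interval -0.21 to 0.14).

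At 5 h, SA against OA called 3 V-ATPase genes: Atp6v1h higher, Atp6v0a1 and Atp6v1b2 lower. All 3 were among the 18 V-ATPase genes above the median level. Of all genes 5.67% were called, and 10.3% of those above the median level. The count is too small to be read as a result about the V-ATPase genes. Atp6v0a1 was lost without OA replicate 2, 3 or 4 or SA replicate 3 or 4 (adjusted p 0.0617 to 0.0789). Atp6v1b2 was lost without OA replicate 1, 2 or 4 or SA replicate 1, 2 or 4 (adjusted p 0.0508 to 0.0882). Against vehicle SA called 0 V-ATPase genes by limma, with 4 at an unadjusted p under 0.05, and quantile normalisation called 1. From 5 h to 20 h of SA, 4 V-ATPase genes rose and 0 fell, with 12.8% of all genes called (6.23% rose, 6.57% fell) and 22.7% of those above the median level. They were Atp6v1c1 at 0.53, Atp6v0d2 at 0.49, Atp6v0d1 at 0.32 and Atp6v1d at 0.27. Atp6v1d lost its call without any 1 of the 5 h SA replicates or 20 h SA replicate 1 or 3 (adjusted p 0.0505 to 0.117). In the same comparison 1 cathepsin, Ctsk, rose and Ctsc, Ctsh and Ctsl fell. The call of Ctsh was lost without 5 h SA replicate 3 (adjusted p = 0.0793) or 4 (0.0547) or 20 h SA replicate 2 (0.105) or 3 (0.0648).

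LPS against vehicle called 10 V-ATPase genes, of which 9 fell and 1 rose, with 22.4% of all genes called. All 10 were among the 18 V-ATPase genes above the median level, where 38.8% of genes were called. The median difference was -0.19 over the 24 V-ATPase genes, beside -0.02 for all genes. Above the median level it was -0.26 for the V-ATPase genes and -0.10 for genes in general. After Atp6v0a1 the largest falls were in Atp6v1c1 at -0.57 and Atp6v0d2 at -0.49, the latter from 10.58, 10.65 and 10.79 with vehicle to 10.10, 10.33, 10.11 and 10.18. Both ring subunits fell, Atp6v1a by 0.43 (8.74 to 8.95 with LPS against 9.22 to 9.30) and Atp6v1b2 by 0.43 (9.61 to 9.77 against 10.07 to 10.18). Of the 3 accessory genes 2 fell, Atp6ap1 by 0.45 and Atp6ap2 by 0.31, and Atp6ap1l, at 0.18 and below the median gene, was not called (adjusted p = 0.263). Smaller falls were called for Atp6v1d, at -0.26, and Atp6v1f, at -0.22. With centred arrays 2 rose and 6 fell, and Atp6v1d, Atp6v1f and Atp6ap2 were not called (adjusted p 0.0761 to 0.171). Under quantile normalisation 1 rose and 12 fell. Atp6ap2 was lost without vehicle replicate 3 (adjusted p = 0.154). Atp6v1d was lost without vehicle replicate 1 or 2 or LPS replicate 1, 2 or 3 (0.0511 to 0.259), and Atp6v1f without any vehicle replicate or LPS replicate 3 or 4 (0.067 to 0.117). Atp6v1e1 and Atp6v1h were not called with LPS, and Atp6v1e1 read 9.73 to 9.92 with LPS and 9.49 to 9.66 with vehicle, at 0.24 (adjusted p = 0.0698).

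**Figure D4:**
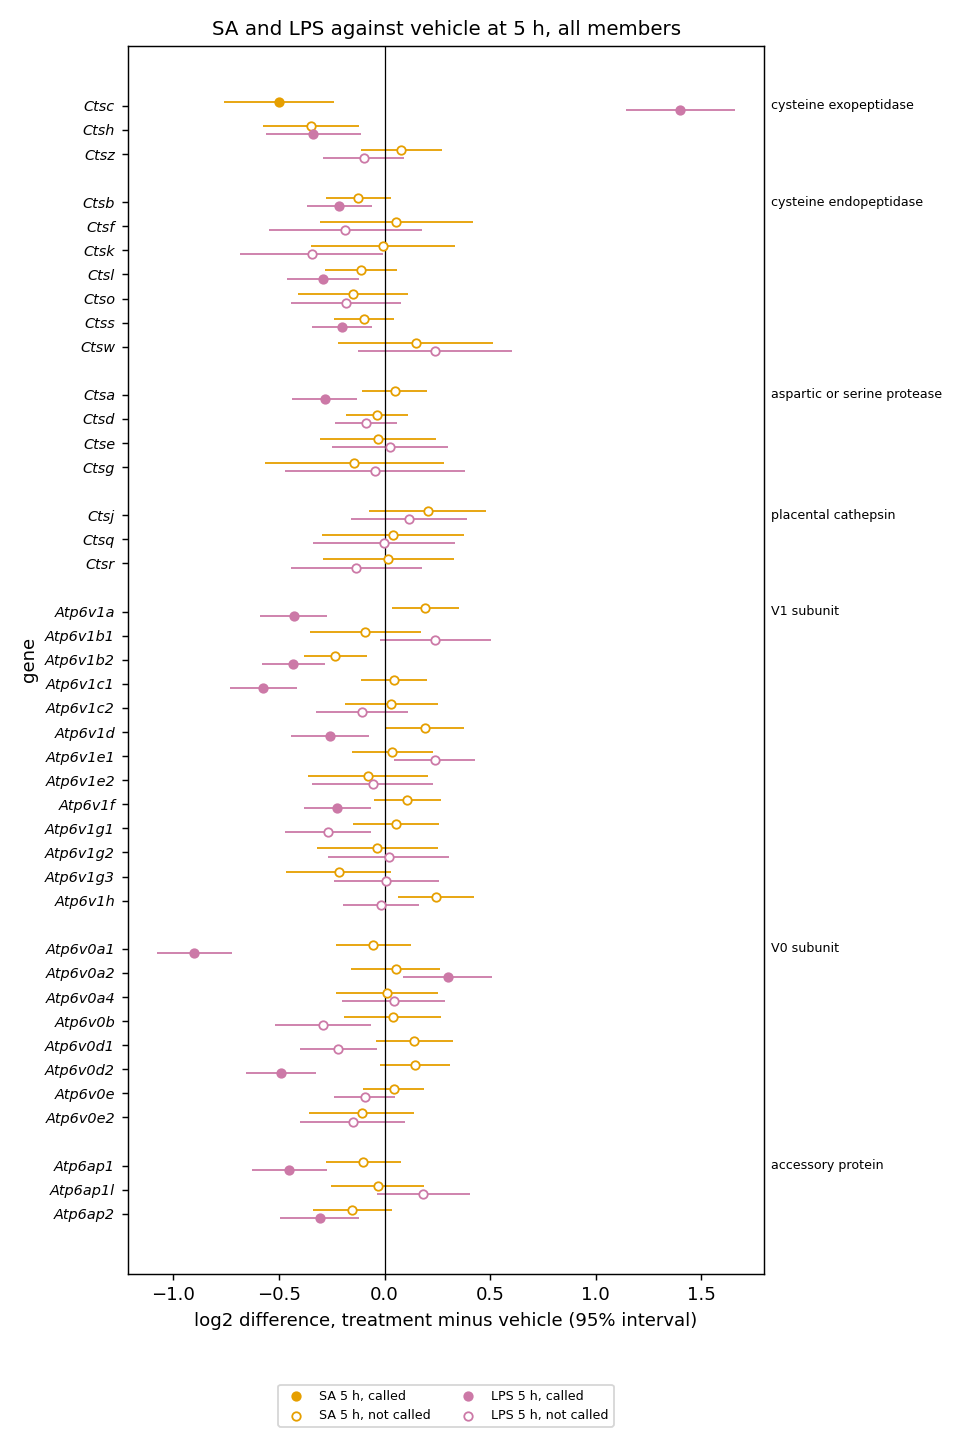
Log2 difference from vehicle at 5 h with SA and with LPS for all 41 members, grouped by role. Points are limma estimates, lines are 95% intervals, and filled points are called at an adjusted p under 0.05. Both comparisons use the same 3 vehicle arrays. SA has 1 filled point, Ctsc at -0.50, and LPS has 16, from Atp6v0a1 at -0.90 to Ctsc at 1.40.

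Set in order across the 6 groups, 8 of the 24 V-ATPase genes (33.3%) had their highest mean with 20 h SA and their lowest with LPS, an order held by 10.1% of all genes. For the cathepsins it was 3 of 17 (17.6%), namely Ctsk, Ctsz and Ctso, of which Ctsz and Ctso were called in no comparison. Ctsc had the reverse order. The V-ATPase genes with it were Atp6v1a, Atp6v1c1, Atp6v1d, Atp6v1f, Atp6v1g1, Atp6v0d1, Atp6v0d2 and Atp6v0e. For Atp6v1c1, 20 h SA at 9.62 stood clear of 5 h SA at 9.08, 20 h OA at 9.08, vehicle at 9.04 and 5 h OA at 8.96. Arrays of these middle groups overlapped in part, and LPS at 8.46 stood clear below. The order takes group means alone, without their spread. It held for 0 of the 12 members below the median level. Its share among all genes above that level was not taken.

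Genes that act with the pump and the proteases were counted from lists. Between the acids at 20 h, 16.7% of all genes were called, and 29.5% of those above the median level. Of 14 genes for V-ATPase assembly, Tcirg1 included, 4 were higher and 3 lower with 20 h SA than with 20 h OA. Dmxl2, a subunit of the RAVE-like assembly complex, was higher by 0.65 and Vma21, an assembly factor of V0, lower by -0.48. Of 12 measured inhibitors of cathepsins, 2 were higher and 5 lower. The largest were Ctla2b at -2.11 and Ctla2a at -1.92, which resemble the propeptides of cathepsins and inhibit cysteine cathepsins. Ctla2a fell from a mean of 6.46 with OA to 4.54 with SA, close to the median gene. The serpin Serpinb6b was lower by -0.90.

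Of 39 other lysosomal hydrolases, 4 were higher and 18 lower with SA at 20 h, at a median difference of -0.22. Among the lower were Pld4 at -1.31, the arylsulfatase Arsb at -0.95 and the ganglioside activator Gm2a at -0.94. With LPS 1 rose and 24 fell, at a median of -0.37, beside 9.22% of all genes that rose and 13.2% that fell with LPS. Among genes above the median level 14.8% rose and 24.1% fell with LPS, at a median of -0.10. Of 29 lysosomal membrane proteins, 8 were higher and 2 lower with SA, led by the cation channel Mcoln2 at 1.31 and the chloride exchanger Clcn7 at 0.80. The channel Tpcn1 was lower by -0.94. Of 26 genes that sort enzymes to lysosomes, 3 were higher and 5 lower, among them Igf2r, the mannose 6-phosphate receptor, at -0.96, Sorl1 at -0.57 and Tmem251 at 0.64.

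Of 19 genes of the MiT/TFE factors and of mTORC1 control at the lysosome, 8 were higher and 1 lower with SA at 20 h. The GTPase Rragd was higher by 0.80, the folliculin partner Fnip2 by 0.66 and the factor Tfec by 0.61. RNA of Tfeb, Tfe3 and Mitf was not called between the acids at 20 h, with Tfeb at 6.53 with SA and 6.54 with OA. With LPS, Tfeb fell by 1.11, Tfe3 fell by 0.31, Mitf rose by 0.41 and Tfec rose by 2.37. In the whole list 2 rose and 12 fell with LPS, beside the same shares of all genes and of those above the median level. Of 25 genes of autophagy and lysosome damage, 7 were higher and 0 lower with SA, led by the autophagy receptor Sqstm1 at 1.67, Gabarapl1 at 0.62 and the damage sensor Lgals8 at 0.60. No test of these lists was made. The shares stand beside the 16.7% of all genes called for the acids at 20 h. Among genes above the median level 29.5% were called (13.6% higher, 16% lower). How many genes of these lists lie above that level was not taken.

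Markers of cell types moved in the same comparisons. Of 11 measured macrophage markers, 10 were lower with SA than OA at 20 h. Their mean log2 expression ran from 8.31 to 8.47 on the SA arrays and from 9.49 to 9.52 on the OA arrays, with Fcgr1, Cx3cr1 and Mrc1 lower by -2.13, -2.14 and -2.13. All 11 stayed above the median gene in every group, and 5 h SA lay between, at 9.16 to 9.18. Of 10 osteoclast markers, which were listed because of Ctsk and Atp6v0d2, 1 was higher and 4 lower, at 5.28 to 5.52 with SA and 5.70 to 5.80 with OA. The lower ones included Mmp9 at -1.50, Dcstamp at -1.40 and Tnfrsf11a at -1.31. Itgb3 went the other way, at a mean of 6.03 with 20 h SA and 5 with 20 h OA. Of 12 neutrophil markers, 8 were above the median gene in every group. With SA at 20 h, 0 were higher and 1 was lower. Between the acids at 20 h, 0 of 9 markers of dendritic cells and 0 of 9 of mast cells were called, with 1 and 0 above the median gene. Of lymphocyte, erythroid and stromal markers 1 each was lower, of 12, 4 and 8 measured. Over time with SA, from 5 h to 20 h, 1 macrophage marker rose and 8 fell, 1 osteoclast marker rose and 5 fell, and 6 neutrophil markers rose and 0 fell. With OA over the same time, 2 neutrophil markers rose and 0 fell, at a median of 0.27 beside 0.28 with SA. There 4 macrophage markers rose and 3 fell, and 1 osteoclast marker rose and 1 fell. The mean over the neutrophil list ran from 5.65 to 6.09 with 5 h SA and 6.20 to 6.48 with 20 h SA. It ran from 6.05 to 6.22 with 5 h OA, 6.37 to 6.51 with 20 h OA and 6.06 to 6.31 with vehicle. With LPS 3 macrophage markers rose and 4 fell, 2 osteoclast markers rose and 4 fell, and 3 neutrophil markers rose and 0 fell, at a list mean of 6.24 to 6.49. Shares of all genes called were 16.7% between the acids at 20 h and 22.4% with LPS. Over time they were 12.8% with SA and 4.38% with OA. Among genes above the median level they were 29.5%, 38.8%, 22.7% and 7.9%, in that order. The part of these markers in the results was not tested.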

How the data were processed

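RNA of 23 macrophage cultures was amplified, labelled with biotin and hybridised to single-channel arrays, per the labels' protocols. The authors deposited RMA-summarised log2 values, 1 per probe set and array. The submitters' processing notes name RMA, and limma without its role. RMA draws arrays to a common distribution, so a shift of all genes cannot be seen. Of 35556 probe sets, the 21789 with 1 gene symbol were used, taking for each gene the one of highest mean over the arrays, which left 19938 genes.

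Group means were fitted in R 4.3.3 by limma 3.58.1, moderating variances by empirical Bayes, and two-sided p-values were adjusted by the Benjamini-Hochberg method over all genes of each of the 8 comparisons. The fit was tested on simulated data. All members are accounted for. Those called between the acids, in the change between the times or with LPS are given by array or group. From the other lists, Tcirg1, the MiT/TFE factors and up to 3 called genes of largest change between the acids at 20 h are named. The members and lists were chosen with earlier results of these data known, so their counts are descriptions. Alternatives were robust moderation with a variance trend, median centring, quantile normalisation, array weights, omission of the dimmest 25% of genes, averaged probe sets, a fit of only the compared groups, adjustment over all probe sets, the replicate number as a block, and omission of single arrays. The number of arrays limits precision, and signal over background was not assessed. Python 3.11.15 with matplotlib 3.10.9 drew the figures.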

Additional observations from a re-analysis of the deposited data

Results flagged for a closer look

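In 105 sets of 4 arrays (1 gene in 1 group), 6 had an array far from the other 3 by Dixon's criterion, and chance alone gives about 1 in 20. Among them are 3 in which the low array is replicate 2 of 20 h SA, the array whose genes deviated most in its group. Atp6v1g1 read 9.43 there with the nearest array at 9.79, Atp6v1h 8.43 with the nearest at 8.69, and Atp6v1a 9.50 with the nearest at 9.68. Atp6v1g1 also had a high array with 20 h OA, replicate 4 at 9.48 with the nearest at 9.36. Atp6v1d had a low array with 5 h SA, replicate 1 at 8.79 with the nearest at 8.88. Ctss had a low array with 5 h OA, replicate 4 at 11.45 with the nearest at 11.52.

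The difference between SA and OA in Atp6v1c1 was larger at 20 h than at 5 h by 0.42 on the log2 scale, by the interaction term in limma (adjusted p = 0.0109).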

How the results depend on the processing

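No called member changed direction under any alternative, and 792 of 896 gene values under alternatives kept their call. Counts of called members that changed by over 1.5 times were as follows, with the reported count first. For the change of the SA to OA difference between the times, cathepsins went from 0 to 2 with a variance trend and robust moderation and to 1 with quantile normalisation, without the dimmest 25% of genes or in a fit of the compared groups alone. V-ATPase genes went from 1 to 4 with the trend and to 3 with quantile normalisation. For 5 h SA against vehicle, cathepsins went from 1 to 2 with the trend and to 0 in the compared groups alone, and V-ATPase genes from 0 to 1 with the trend, quantile normalisation or without the dimmest 25%. For SA at 20 h against 5 h, V-ATPase genes went from 4 to 9 with the trend or quantile normalisation, 8 without the dimmest 25%, 7 over all probe sets and 2 in the compared groups alone. For OA at 20 h against 5 h, they went from 1 to 4 with the trend and 2 with quantile normalisation or without the dimmest 25%. For SA against OA at 5 h in the compared groups alone, 1 cathepsin and 1 V-ATPase gene were called, from 2 and 3. For LPS, 1 cathepsin was called with centred arrays, from 6. The cause was not tested.

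Leaving out 1 array at a time gave 4 to 5 cathepsins and 9 to 12 V-ATPase genes for SA against OA at 20 h, 1 to 2 and 1 to 3 at 5 h, and 0 to 1 and 1 to 2 for the change between the times. It gave 0 to 2 and 0 to 0 for SA against vehicle, 0 to 0 and 0 to 0 for OA against vehicle, 3 to 6 and 7 to 10 for LPS, 3 to 4 and 3 to 6 for SA over time, and 0 to 0 and 1 to 1 for OA over time. Without vehicle replicate 3, LPS called 3 cathepsins.

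Arrays with the same replicate number did not deviate together throughout, so the numbers were not taken to pair the samples. With the replicate number as a block, SA against OA at 20 h gave 4 called cathepsins and 10 V-ATPase genes, and LPS gave 4 and 9. It ended the calls of Atp6ap1 for the acids and of Atp6v0a2, Atp6v1f, Ctsb and Ctss for LPS, and of no other called member.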
